A study of Mus musculus with 34 samples.

Results

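The fibrillar collagens of loose mesenchyme, the collagen VI chains and lysyl oxidase were examined in the RNA-seq libraries of limb buds with and without Hnrnpk. The 9 genes were chosen by symbol, as *Col1a1*, *Col1a2*, *Col3a1*, *Col5a1*, *Col5a2*, *Col6a1*, *Col6a2*, *Col6a3* and *Lox*. Each has 1 entry among the 22040 genes of the FPKM table, and all 9 passed the filter on low values that left 12305 genes for testing. FPKM is a count of fragments scaled by the length of the gene's exons and by the size of the library, so levels can be compared between genes.

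RNA came from mouse limb bud cells of E11.5 embryos, with 3 WT and 3 CKO libraries. CKO embryos carried *Prrx1-Cre* and 2 floxed alleles of *Hnrnpk*, in which loxP sites flank exons 4 to 7. The Cre acts in limb bud mesenchyme and calvarium and lacks activity in the apical ectodermal ridge, so that ridge keeps *Hnrnpk*. Embryos were not separated by sex, and neither the labels nor the study's methods give the exact genotype of the WT embryos, the number of embryos behind a library or whether forelimbs and hindlimbs were pooled.

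Collagens are triple helices of 3 chains built from glycine-rich repeats. *Col1a1* and *Col1a2* encode the chains of collagen I, and *Col3a1* the single chain type of collagen III, the main fibril formers of skin, tendon and loose connective tissue. *Col5a1* and *Col5a2* encode collagen V, which co-assembles with collagen I and is needed to start its fibrils. *Col6a1*, *Col6a2* and *Col6a3* encode collagen VI, which forms beaded microfilaments around cells. *Lox* encodes lysyl oxidase, the copper-dependent enzyme that oxidizes lysines of collagen and elastin so that the chains can be cross-linked. In the early limb bud these transcripts belong mainly to undifferentiated and connective tissue mesenchyme, whereas condensing cartilage turns on collagen II.

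RefSeq start sites on GRCm38.p6 were used for 6 of the 9 genes (*Col1a2*, *Col3a1*, *Col5a1*, *Col6a1*, *Col6a2* with 2 start sites, and *Col6a3*). *Col1a1* and *Col5a2* had no entry among the start sites used, and *Lox* was left out of the search. The 200 bases upstream of each start were searched on both strands for CCCTCCC, a pyrimidine-rich run of the kind that hnRNP K is known to bind in single-stranded DNA. A GC box, a CCAAT box and a TATA box were searched for in the same way. The run was present in 6 of the 7 windows and 5 of the 6 genes, against 17.3% of all 32851 windows of this length, and against 24.3% of windows with a GC content of at least 50%. Its matches may overlap each other. The windows that held it had a GC content of 59.5% to 75.5%. Among all windows with a GC content under 50%, 6.35% held the run, so its share depends on base composition. No background of matched GC content was computed. The windows with the most matches and the window without any are printed, with this run or its reverse complement in capitals for *Col1a2* and *Col6a1*, and the TATA box in capitals for *Col3a1*. *Col1a2* (chr6:4505418-4505617, plus strand) held 4 matches, *Col6a1* (chr10:76726045-76726244, minus strand) held 5, and *Col3a1* (chr1:45311338-45311537, plus strand) held 0.
Col1a2: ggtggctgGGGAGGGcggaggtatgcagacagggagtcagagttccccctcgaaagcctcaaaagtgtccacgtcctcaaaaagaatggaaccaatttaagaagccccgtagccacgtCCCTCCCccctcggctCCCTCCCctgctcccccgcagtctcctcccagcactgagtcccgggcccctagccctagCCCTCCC
Col6a1: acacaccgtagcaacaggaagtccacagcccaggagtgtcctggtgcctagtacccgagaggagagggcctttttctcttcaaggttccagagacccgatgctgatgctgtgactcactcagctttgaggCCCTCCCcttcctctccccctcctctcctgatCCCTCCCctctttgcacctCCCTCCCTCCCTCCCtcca
Col3a1: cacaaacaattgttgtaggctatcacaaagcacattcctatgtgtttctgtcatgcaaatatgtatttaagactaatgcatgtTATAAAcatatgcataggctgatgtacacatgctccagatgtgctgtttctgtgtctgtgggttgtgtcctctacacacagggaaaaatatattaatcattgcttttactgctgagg

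The *Col3a1* window had a GC content of 37.5%, against 59.5% to 75.5% in the other windows, and was the one with a match of the TATA box, searched as TATAAA and found in 9.96% of all windows. The CCAAT box was found in the *Col1a2* window alone (29.3% of all windows). The GC box, searched as GGGCGG, was found in windows of *Col1a2*, *Col5a1* and *Col6a2* (31.0% of all windows). These matches describe the letters in the windows and are not binding sites, and no binding data were analysed here.

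On GRCm38 with GENCODE vM21, *Col3a1* (ENSMUSG00000026043) lies on chromosome 1 from 45311538 to 45349706, and *Col5a2* (ENSMUSG00000026042) lies 24614 bases further on the opposite strand, from 45374321 to 45503282. *Col6a3* (ENSMUSG00000048126) is on the same chromosome from 90765923 to 90843971. *Col6a2* (ENSMUSG00000020241) and *Col6a1* (ENSMUSG00000001119) are neighbours on chromosome 10, from 76595762 to 76623630 and from 76708792 to 76726168. *Col1a1* (ENSMUSG00000001506) is on chromosome 11 from 94936224 to 94953042, *Col1a2* (ENSMUSG00000029661) on chromosome 6 from 4504814 to 4541544, and *Col5a1* (ENSMUSG00000026837) on chromosome 2 from 27886425 to 28039514. *Lox* is ENSMUSG00000024529. The exons of *Col3a1* share 141 bases with an annotated miRNA on the same strand, those of *Col5a1* share 99 and 113 bases with 2 noncoding transcripts on the opposite strand, and those of *Lox* share 30 bases with an antisense transcript. The sources used here do not say whether the counting used the strand.

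*Hnrnpk* itself, the deleted gene, was at 193, 195 and 185 FPKM in WT libraries 1, 2 and 3 and at 127, 142 and 135 in the CKO libraries of these numbers. All CKO values were below all WT values, and the log2 difference was -0.50 ± 0.13 (SE, limma adjusted *p* = 0.334). The paper reports efficient loss of Hnrnpk in CKO limb buds of the same stage by western blot and qPCR. FPKM covers all exons of the gene, so the deleted exons were not measured separately. The paper also proposes that ablation by this Cre might be incomplete in hindlimbs. The exons of *Hnrnpk* share 330 bases with *Rmi1* on the opposite strand. The libraries also held transcripts of cells other than mesenchyme, such as red blood cells. What part any of these points has in the remaining FPKM was not tested. The fragments on listed genes numbered 17140869 to 24624434 per library. Globin transcripts of red blood cells made up 11.7% to 32.4% of the summed FPKM, with the lowest shares in WT replicate 1 (13.7%) and CKO replicate 1 (11.7%). The 15 limb mesenchyme markers were all detected above the filter, and their summed FPKM was 614 to 687 in WT and 565 to 616 in CKO. In bulk RNA, fewer cells of a type and less RNA per cell cannot be told apart.

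Collagen III and collagen I chains were the most abundant of the 9 transcripts, and *Lox* the least. *Col3a1* had a mean FPKM of 64.9 over the 6 libraries, higher than 95.4% of the tested genes, followed by *Col1a2* with 45.3 and *Col1a1* with 26.8. *Col5a1* (15.6) and *Col5a2* (13.9) came next, then *Col6a1* (5.15), *Col6a2* (3.26), *Col6a3* and *Lox* (1.73), the last above 16.5% of the tested genes. *Col5a1* and *Col5a2* exchanged order between libraries, with *Col5a1* higher in 4 of 6, and so did *Col6a2* and *Col6a3*, with *Col6a2* higher in 4 of 6. Every other neighbouring pair kept its order in all 6 libraries, although across libraries the values of a pair overlapped in WT for *Col3a1* and *Col1a2*, *Col1a1* and *Col5a1*, *Col6a1* and *Col6a2*, and *Col6a3* and *Lox*. The depth behind these values ranged from 9779 to 17880 fragments for *Col3a1* down to 248 to 695 for *Col6a1*. For *Lox* it was about 83 to 316, since the FPKM times the exon length did not give whole numbers for this gene.

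**Figure D1:**
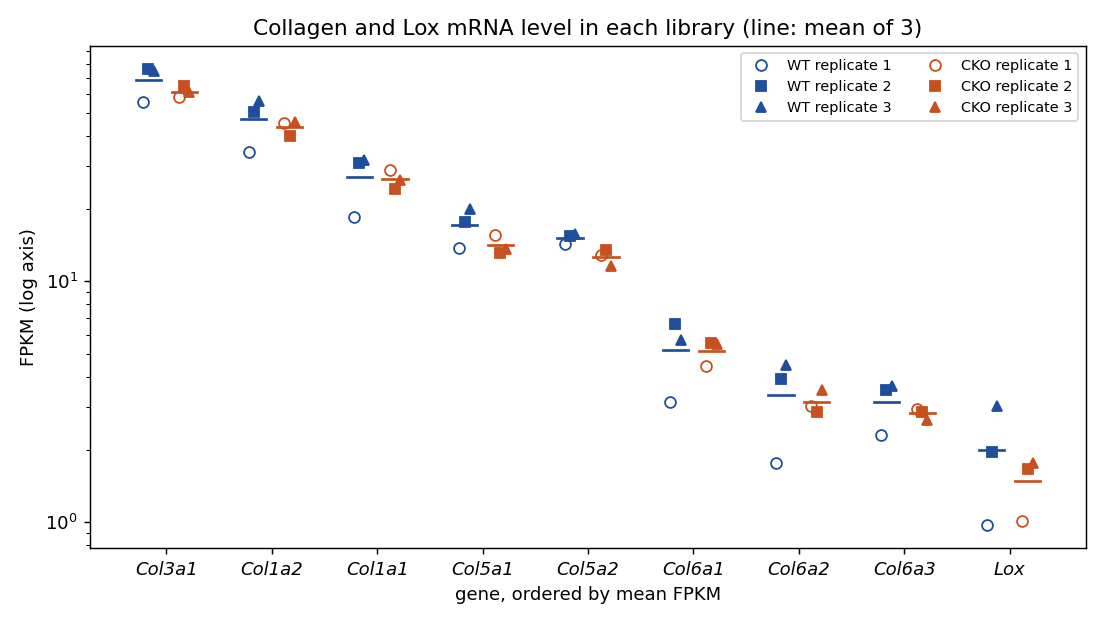
FPKM of the 9 genes in each of the 6 libraries on a log axis, ordered by mean, with WT in blue, CKO in orange, a marker shape per replicate number and a line at the mean of 3. The open blue circles of WT replicate 1 lie under the other WT values for every gene and are the lowest of all 6 values for 7 of the 9 genes.

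None of the 9 genes passed the test between CKO and WT limb buds. In limma on log2(FPKM + 0.1) with *p* values adjusted over all tested genes, 0 of 9 had an adjusted *p* value under 0.05, against 0.065% of all tested genes in either direction and 0.00813% called lower, and 0 of 9 had an unadjusted *p* value under 0.05, against 8.31%. With limma voom on the recovered reads, 0 of 9 passed the adjusted threshold. The log2 fold change was below 0 for 7 of the 9 genes, against 49.1% of all tested genes, with a median of -0.13 against 0.0048 over all tested genes. WT replicate 1 stood apart for these genes, as the lowest WT library for all 9 of them. Leaving it out therefore lowers each log2 fold change in advance, and the counts of that fit only describe this dependence. Without WT replicate 1, 9 of 9 log2 fold changes were below 0 (50.3% of the genes tested in that fit). In that fit 4 of 9 were lower at an unadjusted *p* value under 0.05 (7.5%) and 0 of 9 passed the adjusted threshold. Without WT replicate 3, 4 of 9 were below 0 (48.9%). The median of the 9 was -0.30 without WT replicate 1, -0.039 without WT replicate 2 and 0.051 without WT replicate 3.

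Collagen I, the main fibril former, showed no difference larger than the spread. *Col1a1* was at 18.5, 31.0 and 31.8 FPKM in WT libraries 1, 2 and 3 and at 28.8, 24.2 and 26.3 in the CKO libraries of these numbers. The CKO values all lay between WT replicate 1 and the other WT replicates, and the means were 27.1 ± 7.42 and 26.4 ± 2.32 (SD, n = 3 each). Its fitted log2 fold change was 0.0020 ± 0.21 (SE, limma adjusted *p* = 0.997), with a 95% interval from -0.50 to 0.50, that is, from 0.709-fold to 1.41-fold.

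*Col1a2*, the other chain of collagen I, had 34.4, 50.6 and 56.0 in WT and 45.2, 40.1 and 45.8 in CKO. As for *Col1a1*, the 3 CKO values fell in the gap between WT replicate 1 and WT replicates 2 and 3. The means were 47.0 ± 11.3 in WT and 43.7 ± 3.14 in CKO (SD of 3 libraries each), and the fitted log2 fold change was -0.08 ± 0.19 (SE, 95% interval -0.52 to 0.37, limma adjusted *p* = 0.945). The ratio of *Col1a2* to *Col1a1* FPKM within a library was 1.63 to 1.86 in WT and 1.57 to 1.74 in CKO, so the chains kept a similar proportion of transcripts while their level varied by library.

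*Col3a1*, the collagen III gene and the most abundant of the 9, had 55.3, 76.1 and 74.6 in WT and 58.2, 64.3 and 61.1 in CKO. The groups overlapped through WT replicate 1 alone, which was the lowest library. The fitted log2 fold change was -0.15 ± 0.15 (SE, 95% interval -0.51 to 0.21, limma adjusted *p* = 0.856), from means of 68.7 ± 11.6 and 61.2 ± 3.07 (SD, n = 3 each). The ratio of *Col3a1* to *Col1a1* was 2.35 to 2.98 in WT and 2.02 to 2.66 in CKO.

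The collagen V genes had the largest log2 fold changes among the 8 collagens. *Col5a2* had 14.2, 15.4 and 15.7 in WT and 12.8, 13.5 and 11.6 in CKO. It was the only one of the 9 genes with every CKO value below every WT value, an arrangement found in 8.86% of all tested genes. Its means were 15.1 ± 0.811 and 12.6 ± 0.941 (SD, n = 3 each, exact permutation *p* = 0.1, the smallest that 3 against 3 allow). The fitted log2 fold change was -0.26 ± 0.11 (SE, 95% interval -0.52 to 0.0050, limma adjusted *p* = 0.605).

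*Col5a1* had 13.7, 17.6 and 19.9 in WT and 15.5, 13.1 and 13.7 in CKO. CKO replicate 1 was above WT replicate 1, and CKO replicates 2 and 3 were below all WT values. The fitted log2 fold change was -0.26 ± 0.16 (SE, 95% interval -0.63 to 0.11, limma adjusted *p* = 0.724), close to that of *Col5a2*. The ratio of *Col5a1* to *Col5a2* was 0.966 to 1.27 in WT and 0.974 to 1.21 in CKO.

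*Col6a1* and *Col6a2* had the widest spread between WT libraries among the collagens, with coefficients of variation of 35.0% and 42.6%. *Col6a1* had 3.14, 6.63 and 5.72 in WT and 4.44, 5.53 and 5.47 in CKO. *Col6a2* had 1.75, 3.92 and 4.48 in WT and 3.05, 2.85 and 3.53 in CKO. For either gene WT replicate 1 was the lowest library and the other WT replicates were the highest, with the CKO values between them. *Col6a3*, the gene of the longest chain, had 2.30, 3.52 and 3.68 in WT and 2.96, 2.88 and 2.66 in CKO, again with the CKO values inside the WT range. The log2 fold changes were 0.06 for *Col6a1* (95% interval -0.56 to 0.67), -0.0060 for *Col6a2* (-0.76 to 0.74) and -0.13 for *Col6a3* (-0.58 to 0.32), with limma adjusted *p* values of 0.973, 0.997 and 0.904.

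*Lox* had 0.969, 1.96 and 3.03 in WT and 1.01, 1.66 and 1.76 in CKO. Replicate 1 was the lowest library in WT and in CKO, and the highest value was 3.13 times the lowest within WT. The fitted log2 fold change was -0.31 ± 0.39 (SE, 95% interval -1.22 to 0.60, limma adjusted *p* = 0.883), which was 0.05 without WT replicate 3 and -0.72 without WT replicate 1. That interval runs from 0.429-fold to 1.52-fold, the widest of the 9.

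**Figure D2:**
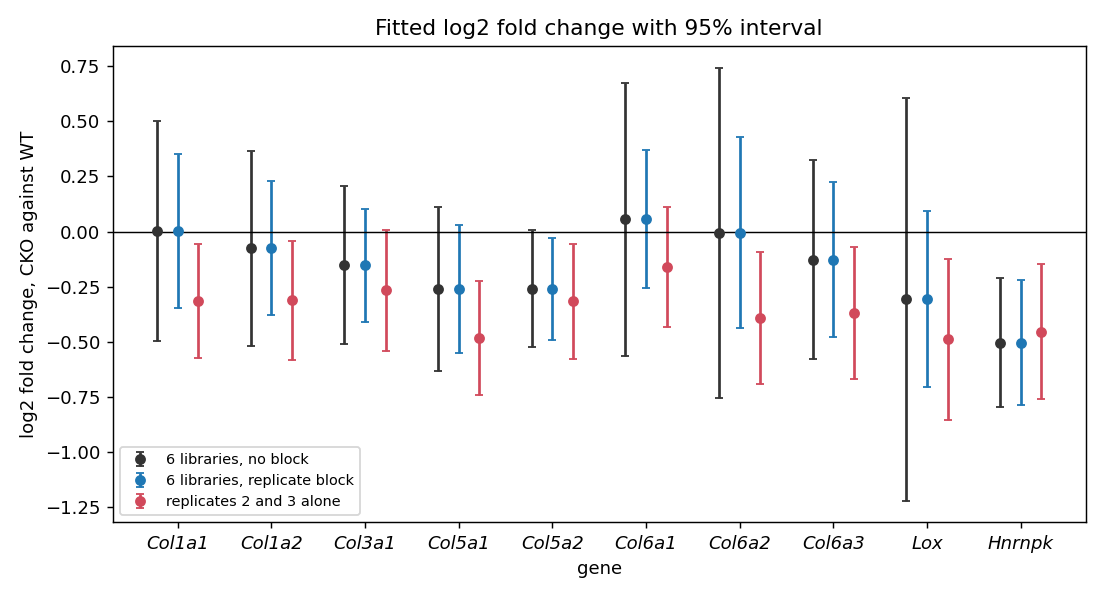
Log2 fold change of each gene in CKO against WT with its 95% interval, for all 6 libraries without a block (black), with the replicate number as a block (blue) and for replicates 2 and 3 alone (red), with *Hnrnpk* at the right for comparison. The black intervals of all 9 genes include 0, while 7 of the 9 red intervals lie below 0, all but those of *Col3a1* and *Col6a1*.

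The 9 genes varied together across libraries, and mainly along the replicate numbers of the WT group. WT replicate 1 was the lowest of the 6 libraries for 7 of the 9 genes (all but *Col5a1* and *Col5a2*), against 16% of all tested genes. From WT replicate 1 to WT replicate 3 the FPKM differed 1.71-fold for *Col1a1*, 2.55-fold for *Col6a2* and 3.13-fold for *Lox*, but 1.11-fold for *Col5a2*. The coefficient of variation was larger in WT than in CKO for 8 of the 9 genes, against 37.2% of all tested genes, and reached 42.6% in WT against 11.0% in CKO for *Col6a2*. The summed FPKM of the 9 genes came to 144, 207 and 215 across WT libraries 1, 2 and 3, and to 172, 168 and 172 across the CKO libraries. Each gene followed the mean of the 9 with a Pearson correlation of 0.81 to 0.96 over the 6 libraries, except *Col5a2* with 0.48. This describes 6 points and includes the gene itself in the mean.

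Within each replicate number, the difference had one sign among libraries numbered 2 and 3 and mostly the other among those numbered 1. Of the 9 genes, 9 were lower in CKO within number 2 and within number 3, a pattern found in 34.9% of all tested genes. Between the libraries numbered 1, 8 of these 9 were higher in CKO, and this combination was found in 13.6% of all tested genes. For *Col1a1* the CKO minus WT differences in log2(FPKM + 0.1) were 0.63, -0.36 and -0.27 for numbers 1, 2 and 3, and for *Col6a2* they were 0.76, -0.45 and -0.34. *Col5a2* was the exception, with -0.15, -0.20 and -0.44. With the replicate number as a block in limma, 0 of the 9 genes had an adjusted *p* value under 0.05 (2.81% of all tested genes), and only *Col5a2* had an unadjusted one under 0.05 (18.4% of all tested genes).

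**Figure D3:**
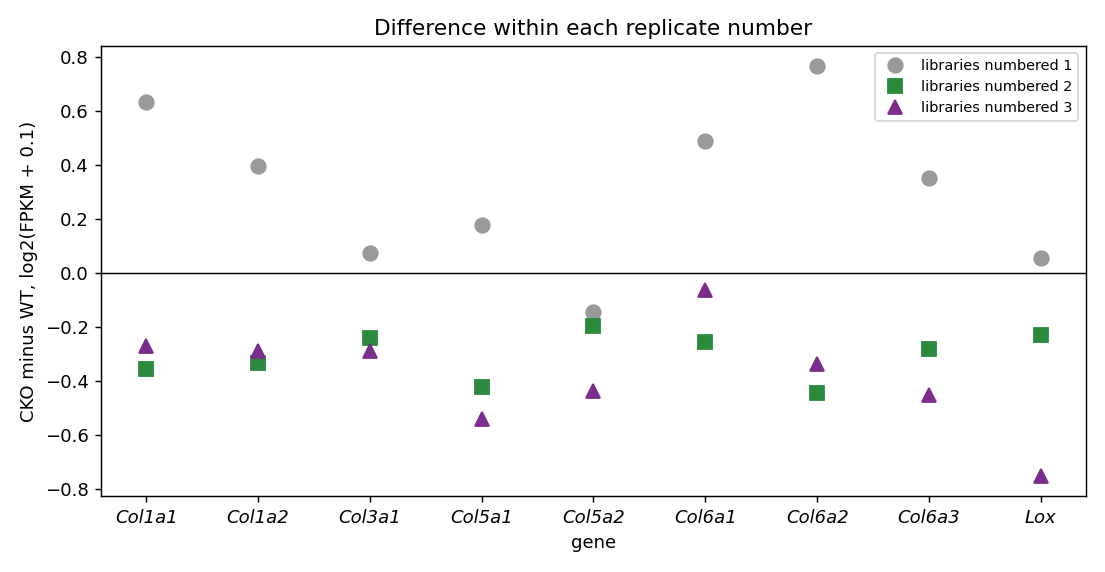
CKO minus WT in log2(FPKM + 0.1) between the libraries of the same replicate number, with grey circles for number 1, green squares for number 2 and purple triangles for number 3. All green and purple points lie below 0, and the grey points lie above 0 for every gene except *Col5a2*.

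Replicates 2 and 3 alone gave a log2 fold change below 0 for all 9 genes (48.9% of the genes tested in these libraries), with both CKO values below both WT values for each, an arrangement of 29.2% of all tested genes. The median log2 fold change of the 9 was -0.32, against 0.0073 over the 12319 genes tested in these 4 libraries. *Col5a1* passed the adjusted threshold in this fit, and the log2 difference was -0.48 ± 0.13 (SE, limma adjusted *p* = 0.0080). Genes called lower made up 8% of those tested. An unadjusted *p* value under 0.05 with a lower value in CKO was reached by 7 of the 9 genes, against 14.5% of those tested, all but *Col3a1* and *Col6a1*. *Lox* had a log2 fold change of -0.49 (limma adjusted *p* = 0.0604), *Col6a2* -0.39 (0.0678), *Col1a1* -0.31 (0.0904) and *Col3a1* -0.27 (0.188). No label sets replicate 1 aside, and with 1 library per group it gives no test of its own. Within that number 8 of the 9 genes were higher in CKO, and *Col5a2* had its smallest fall. Leaving the number out therefore lowers the log2 fold changes of these genes in advance. The counts and *p* values of this fit are a description and no independent support for a fall.

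The other genes of the collagen pathway were also mostly lower in CKO without passing the test. So were the limb mesenchyme (12 of 15 tested), cartilage (9 of 9), endothelial (9 of 9) and tendon (5 of 7) markers. The erythroid, muscle, ectoderm, neural and macrophage markers were mostly higher. *Col2a1*, *Col9a1*, *Col9a2* and *Col9a3* are both on the cartilage list and among the other collagens. Of the 36 other collagen genes of the table, 26 were tested, 20 were lower and 6 higher, with a median log2 fold change of -0.36 and 0 past the adjusted threshold (7 with *p* under 0.05 before adjustment). Over all tested genes, 49.1% were lower and 8.31% had such a *p* value. With the replicate block 3 of these collagens were called lower and 0 higher, where 1.68% of all tested genes were called lower and 1.13% higher. The block pairs libraries by number, and no label says what a number stands for. WT replicate 2 correlated more with CKO replicate 3 than with CKO replicate 2. The block calls here and in the lists below depend on that pairing. *Col16a1*, which encodes a collagen found on the surface of fibrils, had 2.77, 3.97 and 4.29 in WT and 1.84, 1.47 and 1.62 in CKO. All CKO values were below all WT values, and the log2 difference was -1.10 ± 0.19 (SE, limma adjusted *p* = 0.174 without the block and 0.0061 with it). *Col26a1* averaged 17.6 ± 1.74 FPKM in WT limb buds against 12.4 ± 1.25 in CKO (SD of 3 libraries), which is -0.50 in log2 (limma adjusted *p* = 0.352 without the block and 0.0458 with it). *Col11a2*, a cartilage fibril chain, had 1.20, 4.02 and 4.03 in WT and 0.914, 1.12 and 1.44 in CKO, which is -1.18 in log2 (limma adjusted *p* = 0.550 without the block and 0.0172 with it). The largest values above 0 were 0.65 for *Col6a5* and 0.44 for *Col22a1*, neither past a threshold.

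Among 34 genes for collagen synthesis and processing, 29 were tested, 22 were lower and 7 higher in CKO, with a median log2 fold change of -0.12 and 0 past the adjusted threshold (5 with *p* under 0.05 before adjustment), beside 49.1% lower and 8.31% with such a *p* value over all tested genes. With the replicate block 2 fell (1.68% of all tested genes) and 0 rose, and both encode prolyl 3-hydroxylases, enzymes of the endoplasmic reticulum that modify prolines of the nascent chains. *P3h3* had 13.6, 19.4 and 18.4 in WT and 10.8, 8.13 and 9.37 in CKO. All 3 CKO values were below the WT values, and the log2 difference was -0.84 ± 0.17 (SE, limma adjusted *p* = 0.237 without the block and 0.0106 with it). *P3h1* had 6.79, 10.1 and 9.06 in WT and 5.79, 5.70 and 6.13 in CKO, which is -0.53 in log2 (limma adjusted *p* = 0.426 without the block and 0.0442 with it). *Loxl1*, a relative of *Lox* that acts on elastin, differed by -0.56 in log2 (limma adjusted *p* = 0.654 without the block and 0.0715 with it). The highest values were 0.25 for *Fkbp10* and 0.23 for *Pcolce2*, which encode a collagen chaperone and an enhancer of procollagen cleavage, neither past a threshold.

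Of 22 genes for collagen receptors and turnover, 17 were tested, 11 were lower and 6 higher, with a median of -0.25 and 0 past the adjusted threshold (4 at an unadjusted *p* value under 0.05), beside the same 49.1% and 8.31% over all tested genes. With the block 1 of the 17 fell (1.68% of all tested genes) and 0 rose. It was the membrane protease gene *Mmp15*, which went from a mean of 5.33 ± 0.546 to one of 3.78 ± 0.621 (SD of 3 libraries), which is -0.49 in log2 (limma adjusted *p* = 0.468 without the block and 0.0453 with it). *Ctsk*, a collagen-degrading protease gene, had every CKO value below every WT value and a log2 difference of -0.59 (limma adjusted *p* = 0.550 without the block and 0.0982 with it), while *Timp1*, a protease inhibitor gene, had 0.48 and *Mmp16* 0.20. Of 16 fibril regulators, 13 were tested, 10 were lower and 3 higher, with a median of -0.22 and 0 past the adjusted threshold (3 at an unadjusted *p* value under 0.05), again beside 49.1% and 8.31%. That median was -0.61 without WT replicate 1 and -0.11 without WT replicate 3. With the block 1 of the 13 fell and 1 rose (1.68% and 1.13% of all tested genes). *Eln*, the elastin gene and like the collagens a substrate of lysyl oxidase, fell with the block from 1.01, 2.02 and 1.85 in WT to 0.587, 0.722 and 0.782 in CKO, which is -1.07 in log2 (limma adjusted *p* = 0.345 without the block and 0.0168 with it). *Bgn*, a small proteoglycan gene, rose with the block from a mean of 4.64 ± 1.26 to one of 6.94 ± 0.991 (SD of 3 libraries), which is 0.60 in log2 (limma adjusted *p* = 0.545 without the block and 0.0259 with it). The next largest values on either side were -0.79 for *Dcn* and 0.25 for *Postn*, neither past a threshold.

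**Figure D4:**
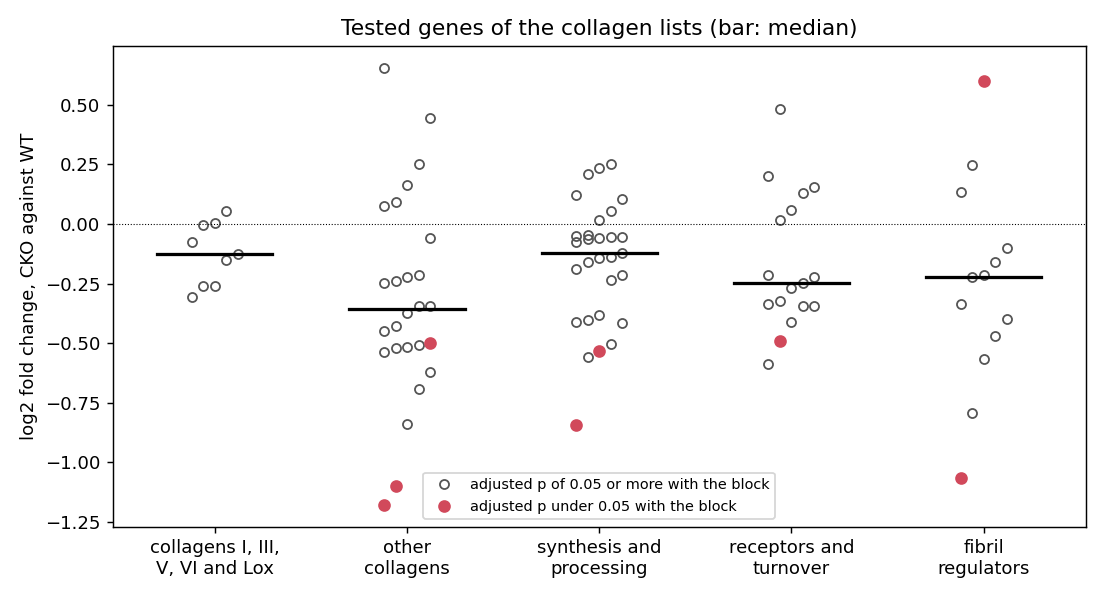
Log2 fold change of every tested gene of 5 lists in CKO against WT without a block, with bars at the medians and filled red points for genes with an adjusted *p* value under 0.05 with the replicate block. The 9 genes at the left lie between -0.31 and 0.06 and hold no red point, while the other lists hold 3, 2, 1 and 2.

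Genes whose pattern across the 6 libraries was most like the mean of the 9 were sought among the tested genes outside them, as a description over 6 points. The highest Pearson correlations were 0.997 for *Gxylt2*, 0.995 for *Fmod*, 0.993 for *Rin2*, 0.991 for *Tnc*, 0.990 for *Igfbp5* and 0.988 for *Ntn1*. *Fmod* and *Tnc* encode matrix proteins. *Igfbp5*, the most abundant of these, had 32.2, 54.0 and 57.0 in WT and 38.9, 40.5 and 44.7 in CKO, so that WT replicate 1 was the lowest and the other WT replicates the highest, as for most of the collagen genes.

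Like the 9 genes, the cartilage, muscle, ectoderm, neural and macrophage markers had their lowest summed FPKM in WT replicate 1. The limb mesenchyme, tendon, erythroid and endothelial markers did not. For the tendon list this held for the sum alone, with 100.3 in WT replicate 1 and 99.5 in CKO replicate 3. On the mean log2 scale the tendon list was also lowest in WT replicate 1, at 1.98. It was at 2.95 and 2.82 in WT replicates 2 and 3, and at 2.22 to 2.53 in CKO. The 11 cartilage markers found in the table, of 12 listed, had a summed FPKM of 103 to 185 in WT, with 103 in WT replicate 1, and of 105 to 115 in CKO. The ratio of *Col1a1* to the cartilage collagen gene *Col2a1* was 0.380 to 0.407 in WT and 0.477 to 0.504 in CKO, with no overlap between the groups and no test, since the ratio was chosen after values were seen. The ratio of *Col3a1* to *Col2a1* overlapped, at 0.894 to 1.21 in WT and 1.02 to 1.34 in CKO. The ratio of *Col1a2* to *Col5a1* did not, at 2.51 to 2.87 in WT and 2.91 to 3.35 in CKO. Among single genes, 14.5% of all tested had groups that did not overlap in either direction. No such share was computed for ratios of 2 genes. The 9 muscle markers summed to 17.4 in WT replicate 1, 52.1 and 48.8 in WT replicates 2 and 3, and 36.6 to 72.8 in CKO. The 14 erythroid markers summed to 38054 to 64295 in WT and 31067 to 143460 in CKO, the 10 endothelial markers to 29.8 to 38.2 and 19.6 to 30.4 (highest in WT replicate 1), and the 9 macrophage markers to 19.5 to 30.4 and 21.3 to 38.2. The 8 tendon and connective tissue markers summed to 100.3 to 124 and 99.5 to 135 (highest in CKO replicate 1), the 10 ectoderm markers to 48.5 to 79.8 and 53.2 to 81.9, and the 8 neural markers to 9.59 to 18.2 and 13.8 to 16.7. No marker of these lists was at 0 in all libraries, and their part in the values of the 9 genes was not tested.

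**Figure D5:**
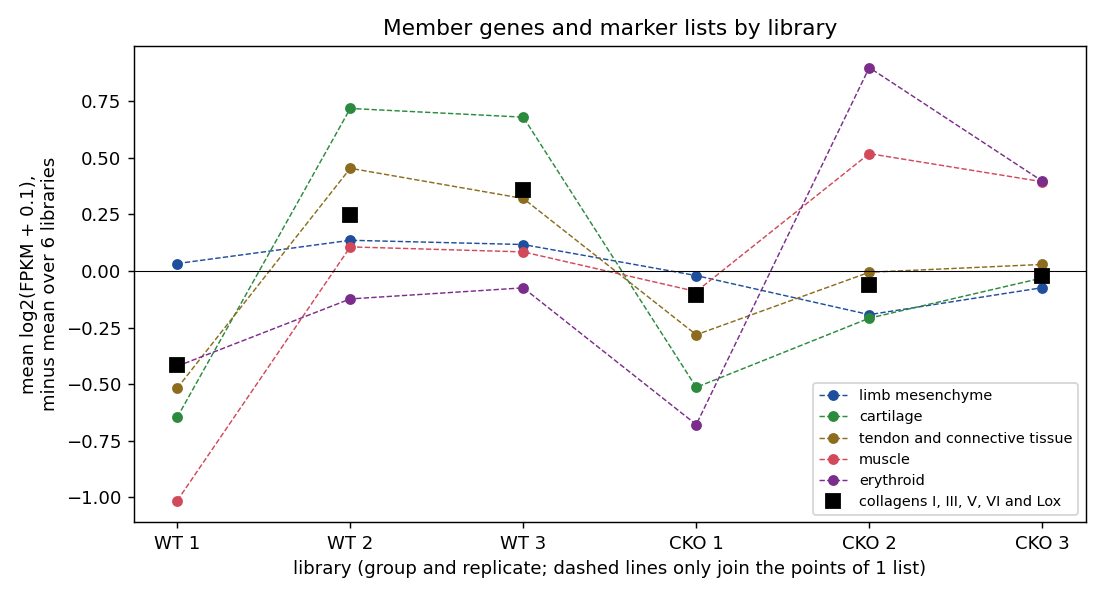
Mean log2(FPKM + 0.1) of the limb mesenchyme, cartilage, tendon and connective tissue, muscle and erythroid markers in each library, minus its mean over the 6 libraries, with dashed lines joining the points of 1 list and black squares for the mean of the 9 genes. The squares are lowest in WT replicate 1 at -0.41 and highest in WT replicate 3 at 0.36, between the cartilage and the limb mesenchyme points in WT replicates 2 and 3, while the CKO squares lie between -0.10 and -0.02.

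When each library was centred on its limb mesenchyme markers, which raised the median of all genes by 0.19 on the log2 scale, 3 of the 9 genes were below 0 instead of 7. The libraries were also rescaled to equal sums after leaving out 7 globin genes, which moved the median of all genes by -0.10. All 9 genes were then below 0, and the log2 fold changes of *Col1a1* and *Col6a1* were -0.10 and -0.05. None of the 9 genes passed the adjusted threshold under either scaling.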

How the data were processed

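RNA-seq of 3 WT and 3 CKO libraries was used, and samples of other assays were not analysed here. The authors prepared stranded mRNA libraries, and the deposited values are FPKM in a single table. The submitters' processing notes name cutadapt 2.5, HISAT2 2.1.0, featureCounts 1.6.3 and mm10, without roles, and further steps are not given in the sources used here. GENCODE vM21 held 99.5% of the identifiers, and for 92.6% of those FPKM times merged exon length gave whole reads in all 6 libraries, within 0.1 reads. The implied library sizes were 18026062 to 23935514, and reads on listed genes were 0.947 to 1.11 times these, so the values carry a scaling between libraries.

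Values were compared as log2(FPKM + 0.1), which understates changes of low genes, where the mean FPKM reached 0.5. The test was limma 3.58.1 (eBayes with trend, two-sided) in R 4.3.3, adjusted by Benjamini-Hochberg over all tested genes. The libraries are called biological replicates without saying which embryos they came from, so *p* values measure the spread between these libraries, which may be technical. Deviations from the group means correlated at 0.64, 0.44 and 0.27 between libraries of the same number 1, 2 and 3, across genes. Each exceeded 0.1, so a replicate block was also fitted as a pairing of the numbers, although the crossed pairs of numbers 2 and 3 correlated more (0.49 for WT replicate 2 with CKO replicate 3, and 0.31 for WT replicate 3 with CKO replicate 2) and no label says what a number stands for.

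The 9 genes and all lists were chosen with earlier results of these data known. Named besides the 9 and *Hnrnpk* are pathway genes past the adjusted threshold with or without the block, the 2 largest falls and rises of each pathway list, and the 6 genes most like the mean of the 9. *Col4a3bp*, not a collagen gene, was kept out of the collagens although its symbol starts alike. Alternatives covered pseudocounts, filters, scalings, variance models, voom on recovered reads, the block, replicates 2 and 3 alone and leaving out each library. Figures were drawn with matplotlib 3.10.9.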

Additional observations from a re-analysis of the deposited data

How the results depend on the processing

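Of the 9 genes, 0 passed the adjusted threshold under 19 of the 20 alternatives, and 1, *Col5a1*, passed with replicates 2 and 3 alone. The number with an unadjusted *p* value under 0.05, 0 as reported, was 1 with no filter, without globin genes, with an ordinary linear model and with the replicate block, 2 in voom with the block, 7 with replicates 2 and 3 alone, and 0 to 4 when a library was left out (4 without WT replicate 1). The number lower in CKO, 7 as reported, was 3 when centred on limb mesenchyme and 6 under median-ratio scaling. It was 9 without globin genes and 9 with replicates 2 and 3 alone. When a library was left out it was 4 to 9, with 4 without WT replicate 3.

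Directions turned for *Col6a2* under median-ratio scaling (0.0100), quantile normalization (0.033) and centring on limb mesenchyme (0.18), and for *Col1a1* under quantile normalization (-0.028), without globin genes (-0.10) and with replicates 2 and 3 alone (-0.31). *Col6a1* turned without globin genes (-0.049) and with replicates 2 and 3 alone (-0.16), and centring turned *Col1a2* (0.11), *Col3a1* (0.038) and *Col6a3* (0.063). With a library left out, the log2 fold change ranged from -0.25 to 0.14 for *Col1a1*, -0.29 to 0.066 for *Col1a2*, -0.30 to -0.071 for *Col3a1*, -0.41 to -0.14 for *Col5a1*, -0.31 to -0.20 for *Col5a2*, -0.26 to 0.27 for *Col6a1*, -0.41 to 0.24 for *Col6a2*, -0.34 to -0.0080 for *Col6a3* and -0.72 to 0.051 for *Lox*. The median of the 9 (-0.13) then ranged from -0.30 to 0.051. The cause was not tested.

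Over all tested genes, 1 was called lower and 7 higher. The replicate block called 207 and 139, voom with the block 393 and 235, and replicates 2 and 3 alone 986 and 877. Without globin genes 0 and 4 were called, with an ordinary linear model 0 and 0, with no filter 0 lower, with quantile normalization 13 higher and with centring 12 higher. Leaving out a library gave 0 to 13 lower, with 13 without CKO replicate 1, and 1 to 10 higher.

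Genes past the adjusted threshold, 0 in each pathway list as reported, numbered 3 other collagens, 2 synthesis, 1 turnover and 2 fibril regulator genes with the replicate block, 8, 4, 1 and 3 in voom with the block, and 13, 8, 9 and 7 with replicates 2 and 3 alone. The block changed no call of the 9 genes. The median of the receptor and turnover genes (-0.25) was -0.14 with no filter, -0.36 without globin genes, -0.059 with centring, -0.34 with replicates 2 and 3 alone and -0.33 to -0.15 with a library left out. The limb mesenchyme median (-0.17) was -0.26 with quantile normalization, -0.28 without globin genes and 0.019 with centring, which put the synthesis median (-0.12) at 0.070. The fibril regulator median (-0.22) ranged from -0.61 to -0.11 with a library left out. The neural median (0.27) ranged from -0.21 to 0.48 with a library left out, the lowest without WT replicate 1. *Hnrnpk* passed the adjusted threshold in voom with the block (-0.49) and with replicates 2 and 3 alone (-0.45).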
